A study of Mus musculus and Homo sapiens with 14 samples.

Results

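Kcnn4 and Kcnj2 are genes for potassium channels that stood among the larger falls of the mouse leukemia comparisons described here. They were taken by symbol, as 2 genes of the 20682 rows in each mouse table and, in upper case, of the 19166 rows in the table of the human line MOLM-13. They were chosen by their log2 differences in the mouse comparisons, where both had falls, so every mouse value of theirs is given as a description with no test. Only MOLM-13, where the choice was not made, gave a test, and only for KCNN4.

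Kcnn4 encodes KCa3.1, the intermediate-conductance potassium channel also called the Gardos channel. It senses calcium through calmodulin bound to its tail, opens when cytosolic calcium rises, and lets potassium leave the cell, which makes the membrane potential more negative and keeps up the electrical drive for calcium entry. It is known from red cells, lymphocytes, mast cells and macrophages. Kcnj2 encodes Kir2.1, a strong inward rectifier that needs the membrane lipid PIP2 and holds the resting potential in heart and skeletal muscle and in macrophages. Loss of its function in people causes Andersen-Tawil syndrome.

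The study sequenced polyA RNA in 14 libraries that form 7 groups of 2. MOLM-13 is an established human acute myeloid leukemia line with an MLL-AF9 fusion, here with an empty vector in all 4 libraries. RN2 is a mouse leukemia made with MLL-AF9 and mutant Nras. The titles of its 4 libraries also carry the word empty, but their cell line label names no vector. Both lines were exposed for 2 hours to 0.1% DMSO or to YKL-05-099, a small molecule that blocks salt-inducible kinases (SIKs), with MOLM-13 given 250 nM and RN2 given 350 nM. RN2c cells are RN2 cells that carry Cas9. They were infected by lentivirus with a guide RNA and collected on day 2, with guides e1 and e3 against Sik3 in the sgSik3 group and guides labelled 1 and 2 against Mef2c in the sgMef2c group. The control group, sgRosa26, received a guide to the Rosa26 locus, so that its cells also carry Cas9 and a cut. RN2c libraries are infected populations and not edited clones, and the untreated state of RN2c without any guide was not analysed here. The labels do not say whether replicate libraries are separate cultures, so spreads and p-values refer to these libraries and may be technical. Each Sik3 or Mef2c guide has a single library, so SD, SE and p-values in sgSik3 and sgMef2c mix guide and library differences. They do not give the spread of repeats of a guide. The doses in the lines differed, and exposure lasted 2 hours with the inhibitor against 2 days with a guide.

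The deposited values are DESeq2-normalized read counts, called normalized counts below, on a linear scale that is set separately in each of the 4 tables. Library totals, as reads recovered from these values, were 16859820 to 22609627 in MOLM-13, 13961461 to 14943682 in RN2 and 19065348 to 24275290 in RN2c. The guides' targets were lower in their own groups: Sik3 was at 1938.7 and 1877.8 normalized counts in sgRosa26 and at 1219.2 and 1169.2 in sgSik3 (limma adjusted p = 5.72e-06), and Mef2c went from 8394.9 and 8368.6 to 3892.1 and 4021.5 in sgMef2c (limma adjusted p = 7.97e-05). All 6 myeloid markers examined (Ptprc, Spi1, Itgam, Cd33, Csf1r and Fcgr3) had reads in the mouse tables, and 5 of 6 in MOLM-13, where FCGR3A was at 0.

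The genes lie on different chromosomes. In GENCODE M21 on GRCm38, Kcnn4 (ENSMUSG00000054342.8) spans chr7:24370263-24386690 on the plus strand and has 5 transcripts, and Kcnj2 (ENSMUSG00000041695.2) spans chr11:111066164-111076821 on the plus strand with 1 transcript. Both code for proteins. The 250 bases before each start site, from RefSeq on GRCm38.p6, are printed because the transcripts of both genes were lower after Sik3 or Mef2c guides, and they show what the 2 starts have in common. The capitals mark the palindromic E-box CACGTG, which was picked out after the sequences had been seen.
Kcnn4 chr7:24370013-24370262: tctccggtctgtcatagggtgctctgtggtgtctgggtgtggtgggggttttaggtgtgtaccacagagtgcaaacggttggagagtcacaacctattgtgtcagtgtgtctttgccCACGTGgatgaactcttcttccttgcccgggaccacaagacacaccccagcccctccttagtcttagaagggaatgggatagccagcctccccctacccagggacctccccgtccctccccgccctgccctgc
Kcnj2 chr11:111065914-111066163: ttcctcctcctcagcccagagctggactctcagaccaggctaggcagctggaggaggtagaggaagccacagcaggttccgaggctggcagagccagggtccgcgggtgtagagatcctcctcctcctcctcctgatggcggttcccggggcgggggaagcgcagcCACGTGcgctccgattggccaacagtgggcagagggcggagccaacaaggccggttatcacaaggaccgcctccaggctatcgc

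The Kcnn4 stretch is 58.8% GC with 6 CpG dinucleotides, and the Kcnj2 stretch is 65.6% GC with 14, against medians of 52.4% and 6 over 32851 RefSeq promoter stretches of the same length. Each held 1 E-box, starting 133 bases before the start in Kcnn4 (position -133) and 84 bases before it in Kcnj2 (position -84). Of the 32851 stretches, 6.02% held that motif. Searched on both strands, neither stretch held the cyclic AMP response element TGACGTCA (1.55% of all stretches), its shorter form TGACG (17.8%, which any full element also counts towards), the AP-1 motif TGANTCA (6.75%) or the MEF2 motif (2.92%). A match is a run of letters and not a shown binding site, and the absence of letters in these windows tells nothing about the factors.

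Kcnn4 was lower with every Sik3 guide and every Mef2c guide, and it was not lower after the inhibitor in RN2. In the sgSik3 table its normalized counts were 224.8 and 452.7 in the sgRosa26 libraries, 69.1 with guide e1 and 69.9 with guide e3. Both guides thus lay at nearly the same level, and the groups did not overlap: the lower control was 3.22 times the higher sgSik3 library. The share of all genes whose groups do not overlap was not counted, here or for the comparisons below. Such separation is therefore only a description. The means were 338.8 ± 161.2 (SD, n = 2) and 69.5 ± 0.554 (SD, n = 2), a 4.88-fold lower level and a log2 difference of -2.18 (SE 0.265, on log2 of the value plus 1). This placed Kcnn4 at position 16 from the lowest difference of 10934 genes measured in that comparison. There, 2615 of the 10934 genes, or 23.9%, fell past the test across all genes, and 47.8% passed it in either direction, which is the background for any member or list gene below.

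Against the same controls, scaled in the sgMef2c table to 236.3 and 474.7 normalized counts, Kcnn4 stood at 104.8 with Mef2c guide 1 and 88.3 with guide 2. No Mef2c library reached the lower control, which was 2.26 times the higher of them. The means of 355.5 ± 168.5 and 96.5 ± 11.6 (SD, n = 2 each) differed 3.68-fold, a log2 difference of -1.79 (SE 0.294) and position 50 from the lowest of 10956 genes. In this comparison 15.1% of the genes fell past the test and 31.4% passed it in either direction. That share depended on the libraries used: the count of 3442 genes past the test was lower whichever library was left out. Why it was lower was not tested. Because sgSik3 and sgMef2c share their control libraries, the likeness of the 2 differences is not a result in itself.

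The sgRosa26 libraries disagreed on Kcnn4 far more than on most genes. Replicate 2 held 2.01 times the normalized count of replicate 1, a log2 gap of 1.01, and only 0.805% of the genes in the sgSik3 table had a larger gap between these libraries. Among the 500 genes nearest to Kcnn4 in mean level, 0.2% did. The size of the Kcnn4 difference therefore depends on the control taken. For guide e1 the log2 difference was -1.69 against replicate 1 and -2.70 against replicate 2, and for e3 -1.67 and -2.68. For Mef2c guide 1 these were -1.17 and -2.17, and for Mef2c guide 2 -1.41 and -2.41. All of these differences were below 0, which follows from groups that do not overlap.

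In RN2 cells the inhibitor went with a slightly higher Kcnn4 level. Normalized counts were 315.9 and 318 with DMSO and 395.6 and 382.04 with YKL-05-099, so that both treated libraries lay above both DMSO libraries. The means were 316.9 ± 1.51 and 388.8 ± 9.57 (SD, n = 2 each), 1.23 times the DMSO level, with a log2 difference of 0.29 (SE 0.0858). Ordered from the lowest difference, Kcnn4 took position 10285 of 10732 genes, at the end opposite to its place in the knockouts. Of those genes 0.317% passed the test, 0.28% as falls and 0.0373% as rises. This small count of 34 genes moved to 130 without DMSO replicate 1 and to 321 without DMSO replicate 2.

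Kcnj2 was lower in all 3 mouse comparisons, with each guide and in each inhibitor library. In RN2 its normalized counts were 516.3 and 482 with DMSO and 236.2 and 238.4 after 2 hours of YKL-05-099. The treated libraries lay close together and well under the controls, the lower of which was 2.02 times the higher treated value. Means of 499.2 ± 24.3 and 237.3 ± 1.58 (SD, n = 2 each) gave a 2.1-fold lower level and a log2 difference of -1.07 (SE 0.0886). It took position 11 from the lowest difference of 10732 genes, in a comparison where 0.28% fell past the test.

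With Sik3 guides, Kcnj2 was at 698.9 and 779.8 normalized counts in sgRosa26, 239.4 with e1 and 289.3 with e3. The guides differed by 0.27 on the log2 scale, a gap that 7.74% of all genes exceeded. The groups again did not overlap, the lower control being 2.42 times the higher sgSik3 library. The means, 739.4 ± 57.2 and 264.3 ± 35.3 (SD, n = 2 each), stood 2.80-fold apart, with a log2 difference of -1.49 (SE 0.102) and position 73 of 10934. The Kcnj2 controls lay nearer to each other than those of Kcnn4, replicate 2 holding 1.12 times replicate 1. That gap was exceeded by 22.4% of all genes and by 15.8% of the 500 nearest to Kcnj2 in mean level.

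With Mef2c guides the Kcnj2 difference was smaller. Controls stood at 734.7 and 817.6 normalized counts in that table, guide 1 at 532.7 and guide 2 at 454.5, so guide 1 kept 68.6% and guide 2 58.6% of the control mean. The groups did not overlap, with the lower control at 1.38 times the higher sgMef2c library. The means of 776.1 ± 58.6 and 493.6 ± 55.3 (SD, n = 2 each) were 1.57-fold apart, a log2 difference of -0.65 (SE 0.0958) at position 443 of 10956, in a comparison where 15.1% fell past the test.

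**Figure D1:**
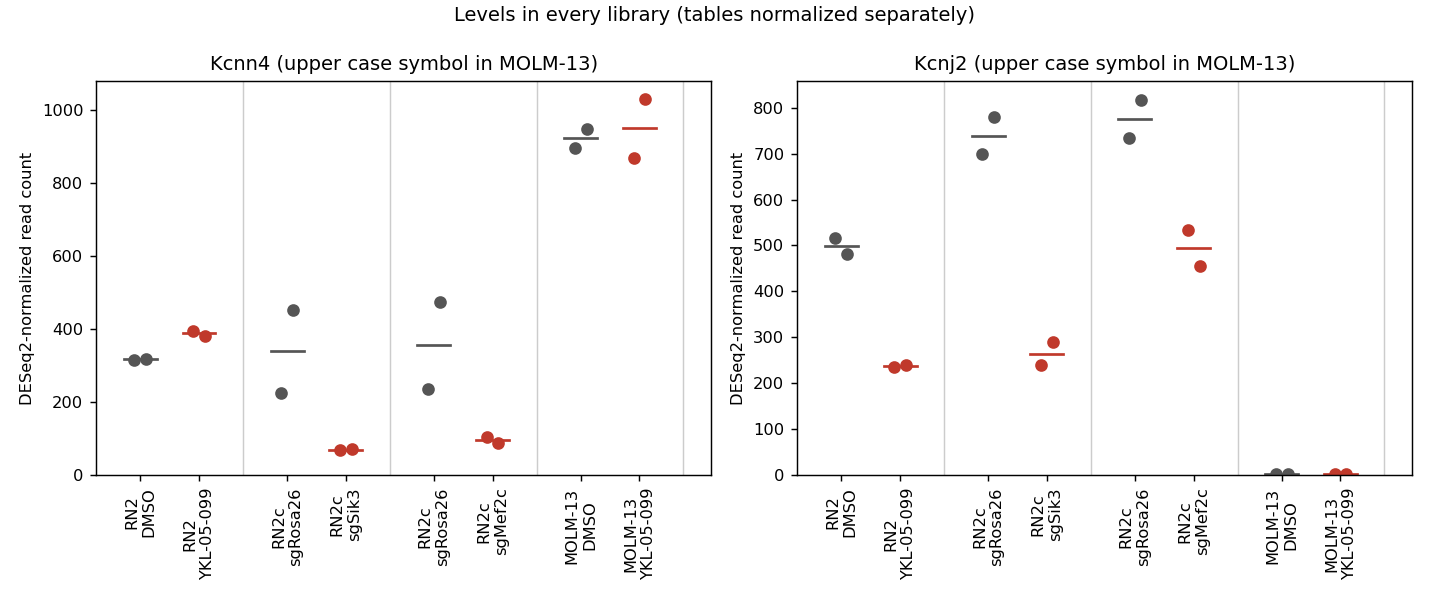
Normalized counts of Kcnn4 and Kcnj2 in every library, a panel per gene, with points for libraries and lines for group means (n = 2 per group). The tables side by side in a panel were scaled separately, so heights compare only within a table. Kcnn4 is lower with Sik3 and Mef2c guides but not after YKL-05-099 in RN2, its sgRosa26 controls lie far apart (224.8 and 452.7 in the sgSik3 table), and KCNJ2 in MOLM-13 stays at 1 to 2 reads.

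By guide, Kcnn4 kept 20.4% of the control mean with e1 and 20.6% with e3, 29.5% with Mef2c guide 1 and 24.8% with Mef2c guide 2. Kcnj2 kept 32.4% with e1 and 39.1% with e3. The log2 differences of Kcnj2 from the control mean were -1.62 for e1 and -1.35 for e3, against -0.54 and -0.77 for Mef2c guides 1 and 2. After the inhibitor, RN2 cells kept 47.3% and 47.8% of the DMSO level of Kcnj2, while Kcnn4 stood at 124.8% and 120.5%.

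**Figure D2:**
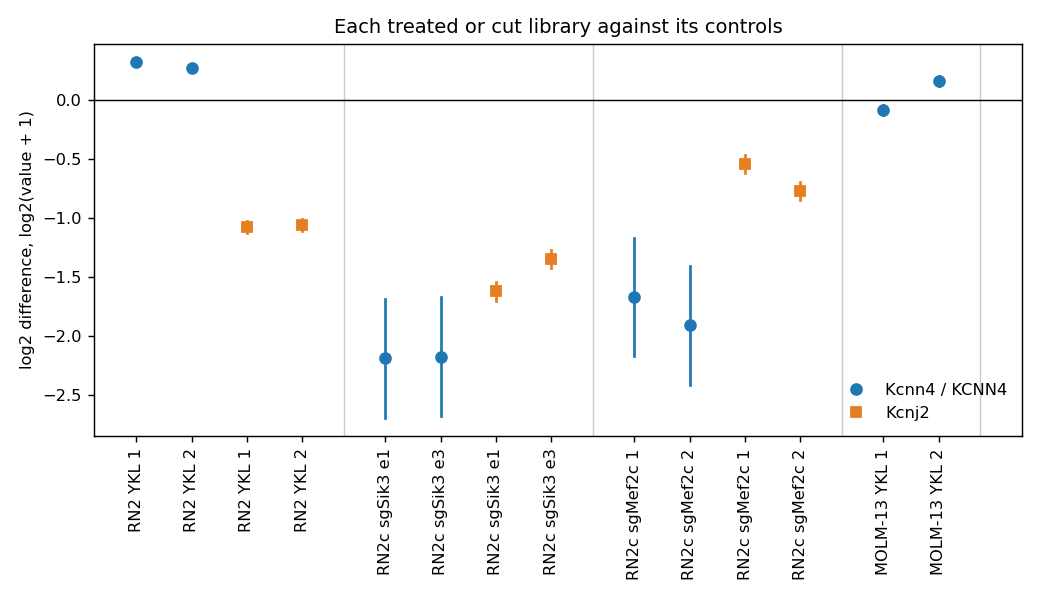
Log2 difference of each guide or inhibitor library from the mean of its controls, with 0 marking the control mean. Kcnn4 and Kcnj2 are shown in the 3 mouse comparisons, and KCNN4 alone in MOLM-13. Bars run between the differences from each single control library. The Kcnn4 points of the Mef2c guides (-1.67 and -1.91) lie nearer to those of the Sik3 guides (-2.19 and -2.18) than the Kcnj2 points do (-0.54 and -0.77 against -1.62 and -1.35).

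Set on a single scale for the 10 mouse libraries, as CPM (recovered reads scaled to library size with TMM factors), the genes ordered the groups differently. Kcnn4 was highest in RN2 with YKL-05-099 at 26.3 ± 0.542 CPM, followed by RN2 with DMSO at 21.4 ± 0.22 and sgRosa26 at 16.5 ± 7.83 (SD, n = 2 each). The last 2 groups overlapped and do not differ beyond their spread. Below them came sgMef2c at 4.48 ± 0.555 CPM and sgSik3 at 3.39 ± 0.0296, which did not overlap each other. For Kcnj2 the order began with sgRosa26 at 35.96 ± 2.76 CPM and RN2 with DMSO at 33.8 ± 1.45, whose libraries overlapped. Then came sgMef2c at 22.9 ± 2.65, RN2 with YKL-05-099 at 16.04 ± 0.171 and sgSik3 at 12.9 ± 1.73, each apart from its neighbours. RN2 and RN2c groups also differ in Cas9, infection and time. In both orders these cannot be told apart from the inhibitor or the guide. The sgMef2c mean exceeded the sgSik3 mean by 0.35 on the log2 scale for Kcnn4 and by 0.81 for Kcnj2.

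Per exon length, both genes were among the more abundant potassium channel genes of these cells. As RPKM (the same values divided by exon length, over the union of GENCODE M21 exons), Kcnj2 was at 6.2 ± 0.267 and Kcnn4 at 4.19 ± 0.043 in RN2 with DMSO, ranks 5 and 7 of 91 potassium channel genes. Above them stood the beta subunit gene Kcnab2 at 51.3, Kcna3 at 11.2, Kcnk6 at 8.26 and the accessory subunit gene Kcne3 at 7.36. In sgRosa26 Kcnj2 ranked 6 of 91 at 6.61 ± 0.508 and Kcnn4 ranked 7 at 3.22 ± 1.53. The nearest relatives of both were close to absent in the mouse cells. Kcnn1 had 0 to 4 reads per library, Kcnn2 and Kcnn3, which encode small-conductance channels, 0 to 1, the large-conductance channel gene Kcnma1 0 to 4, and of the other Kir2 genes Kcnj4 and Kcnj12 were at 0 throughout and Kcnj14 had 1 to 6.

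In MOLM-13 the picture of the family was another one. KCNN4 had 897.3 and 949.5 normalized counts with DMSO and 869 and 1033 with YKL-05-099. The groups overlapped fully, with the lowest and the highest value both in treated libraries. Means were 923.4 ± 36.9 and 950.8 ± 115.8 (SD, n = 2 each), and the log2 difference was 0.04 (SE 0.121, 95% confidence interval -0.249 to 0.324, limma adjusted p = 1). The sign of this value turned without DMSO replicate 1 (-0.0033) and without YKL-05-099 replicate 2 (-0.09). Across all 11361 genes measured in MOLM-13, 0% passed the test by limma, with 144 at an unadjusted p under 0.05, while edgeR called 0 and DESeq2 7.

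KCNJ2 could not be compared in MOLM-13. It had 1 and 2 recovered reads with DMSO and 1 and 1 with the inhibitor, all under the 3 reads that a count of 0 allows, so no fold and no test are given. The small-conductance gene KCNN2, near 0 in the mouse cells, had 1930 to 2230 normalized counts there.

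Of the other potassium channel genes, 89 symbols in 4 families were matched in each table, and most were too low to measure: 11 in RN2, 15 in each RN2c comparison and 22 in MOLM-13 reached a mean of 10 normalized counts. In sgSik3, 4 of the 15 rose and 5 fell, or 60% against the 47.8% of all genes, and their median log2 difference was 0.0447 against -0.000544 over all genes. The count was 5 to 8 with 1 library left out and 3 by DESeq2. Kcna3, the voltage-gated channel Kv1.3 of lymphocytes and macrophages, fell from 463.8 and 410.9 to 203.4 and 234.7 normalized counts (log2 difference -0.995, SE 0.104, limma adjusted p = 7.19e-05). Kcnk12, a gene of the K2P family of leak channels, rose from 458 and 464.7 to 629.5 and 611.3 (log2 difference 0.43, limma adjusted p = 0.000652). Kcne3 rose by 0.42 on the log2 scale (limma adjusted p = 0.00311). The inward rectifier gene Kcnj10 rose from 10.3 and 15 to 22.4 and 26.2 normalized counts (limma adjusted p = 0.043), a call lost without sgRosa26 replicate 1 (0.134), e1 (0.109) or e3 (0.202), without the filter on low values (0.0587) and by DESeq2 (0.283).

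In sgMef2c, 1 of 15 measured channel genes rose and 1 fell, or 13.3% against 31.4% of all genes, with a median log2 difference of -0.0125 against 0.000156. The 2 were Kcnk12, from 481.5 and 487.2 to 654.5 and 715.1 normalized counts (log2 difference 0.50, limma adjusted p = 0.003), and Kcna3, from 487.5 and 430.8 to 212.2 and 174.5 (log2 difference -1.25, limma adjusted p = 0.000767). In sgMef2c the log2 difference of Kcna3, -1.25, thus lay between those of Kcnn4, -1.79, and Kcnj2, -0.65.

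None of the 11 measured channel genes passed the test in RN2 (0% against 0.317% of all genes, limma), and their median log2 difference was -0.0839 against -0.000897. The lowest p belonged to Kcnk6, the K2P channel TWIK-2 known from macrophages, at 549.9 and 464 normalized counts with DMSO and 382 and 369.3 with YKL-05-099 (log2 difference -0.43, limma adjusted p = 0.145). Without DMSO replicate 2 this came to -0.55 with a limma adjusted p of 0.000554. In MOLM-13 none of 22 passed (0% against 0%), and KCNN2, of lowest p among calcium-activated channels, went from 2139.5 and 2228.3 to 1930.3 and 1950.7 normalized counts (log2 difference -0.17, limma adjusted p = 1).

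**Figure D3:**
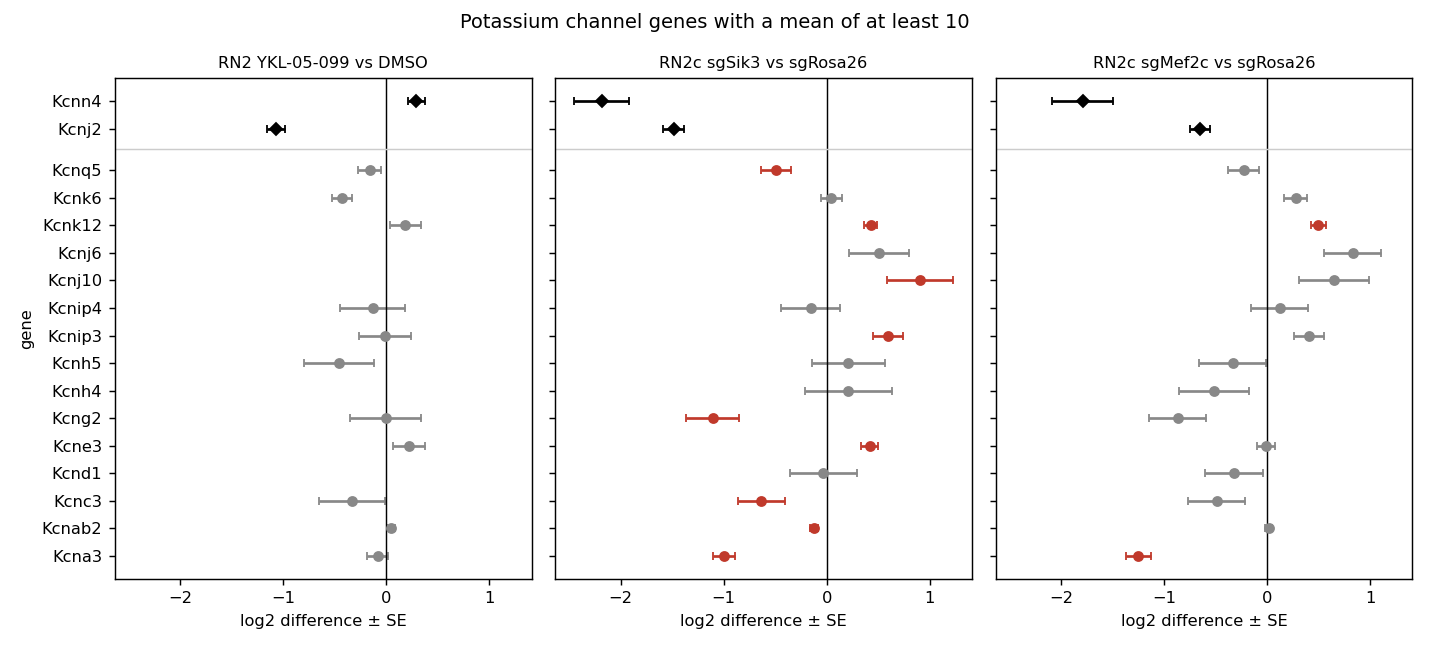
Log2 difference of the measured potassium channel genes in each mouse comparison. Black diamonds mark Kcnn4 and Kcnj2. Of the other channel genes, those in red passed the test (limma, threshold 0.05) and those in grey did not. No test is applied to Kcnn4 and Kcnj2 in mouse. Kcnn4 (-2.18) and Kcnj2 (-1.49), which were chosen by their falls in mouse, have the lowest values in sgSik3. In sgMef2c the called fall of Kcna3 (-1.25) lies between theirs (-1.79 and -0.65).

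Genes that work with the channels were read from lists chosen with earlier results of these data known. Of 8 measured genes for the calmodulin subunit and regulators of KCa3.1, 2 rose and 2 fell in sgSik3 (50% against 47.8% of all genes) and 1 fell in sgMef2c (12.5% against 31.4%). Nme2, a nucleoside diphosphate kinase whose histidine kinase activity switches KCa3.1 on, fell from 5866 and 5574.6 to 4328.8 and 4338.2 normalized counts in sgSik3 (log2 difference -0.40, limma adjusted p = 2.94e-05) and by 0.31 on the log2 scale in sgMef2c (limma adjusted p = 0.00755). Mtmr6, a lipid phosphatase that turns the channel down, rose by 0.24 in sgSik3 (limma adjusted p = 0.000972). For Kir2.1 partners, 5 of 7 measured genes rose and 1 fell in sgSik3 (85.7%), and 4 rose in sgMef2c (57.1%). Among them Pip5k1b, a kinase that makes PIP2, went from 352.8 and 429.8 to 550.7 and 573.1 in sgSik3 (log2 difference 0.53, limma adjusted p = 0.0019) and rose by 0.62 in sgMef2c (limma adjusted p = 0.00712). Both sgMef2c calls were lost without the mean-variance trend (adjusted p = 0.0687 for Nme2 and 0.057 for Pip5k1b). The median log2 differences of the regulators and the partners were 0.0123 and 0.16 in sgSik3, against -0.000544 over all genes, and 0.0162 and 0.152 in sgMef2c, against 0.000156. None of these genes passed the test in RN2 or MOLM-13, where 8 and 7 regulators and 7 and 6 partners were measured.

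The sodium-potassium pump sets the potassium gradient that both channels use. In sgSik3 2 of its 6 measured genes rose and 3 fell, and in sgMef2c 1 rose and 3 fell. The beta subunit gene Atp1b1 rose from 36.7 and 33.9 to 135.3 and 116.8 normalized counts in sgSik3 (log2 difference 1.80, limma adjusted p = 4.31e-05) and from 38.6 and 35.5 to 128 and 175.6 in sgMef2c (log2 difference 1.99, limma adjusted p = 0.000777). Of 19 genes for calcium entry and stores, 7 rose and 3 fell in sgSik3, and 5 rose and 5 fell in sgMef2c. Stim1, the calcium sensor of the endoplasmic reticulum, rose from 1665.9 and 1719.2 to 2466.5 and 2365.6 normalized counts in sgSik3 (log2 difference 0.51, limma adjusted p = 1.69e-05) and by 0.49 in sgMef2c (limma adjusted p = 0.000767), and Atp2a3, a pump that refills the stores, rose by 0.57 and 0.62 (limma adjusted p = 1.05e-05 and 0.00111). Of 10 calcineurin and NFAT genes 4 rose and 1 fell in sgSik3, and 3 rose and 1 fell in sgMef2c, with Nfatc2 up by 0.61 and 0.90 (limma adjusted p = 0.00132 and 0.00528, the second lost at 0.0539 without the trend). Of 13 volume and chloride channel genes 3 rose and 2 fell in sgSik3 and 3 fell in sgMef2c. The shares past the test were 83.3%, 52.6%, 50% and 38.5% for these 4 lists in sgSik3, against 47.8% of all genes. In sgMef2c they were 66.7%, 52.6%, 40% and 23.1%, against 31.4% of all genes. The median log2 differences of the lists, in the same order, were -0.108, 0.0298, 0.0969 and -0.0394 in sgSik3, against -0.000544 over all genes. In sgMef2c the medians were -0.15, -0.0463, 0.00443 and -0.0563, against 0.000156. None of the 4 lists had a gene past the test in RN2 or MOLM-13.

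Genes whose pattern over the 10 mouse libraries was most like that of Kcnn4 were found by the root mean square difference of log2 profiles, each centred on the control mean of its line, among 9295 genes. The nearest were Angptl2, a secreted angiopoietin-like protein gene, at 0.252 on the log2 scale, the integrin gene Itgb7 at 0.26, the drug efflux pump gene Abcb1b at 0.27, the chemokine receptor gene Ccr2 at 0.29 and the cadherin gene Cdh17 at 0.291. Angptl2, like Kcnn4, was higher with the inhibitor in RN2 (0.38 on the log2 scale) and had -2.23 in sgSik3 and -1.69 in sgMef2c. Between the sgRosa26 libraries, replicate 2 was above replicate 1 by 0.149 for Angptl2, 0.437 for Itgb7, 0.168 for Abcb1b, 0.419 for Ccr2 and 0.608 for Cdh17, so none of the 5 showed a gap as wide as that of Kcnn4.

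For Kcnj2 the nearest was Fam84b at 0.151, with log2 differences of -1.13 in RN2, -1.18 in sgSik3 and -0.71 in sgMef2c. Then came the organic anion transporter gene Slco4a1 at 0.268, Cpeb2, which encodes a regulator of mRNA translation, at 0.299, Phlpp2, for a phosphatase that acts on Akt, at 0.338, and Pcp4l1 at 0.36. Pearson's r with the member over the 10 libraries was 0.972 for Angptl2 and 0.968 for Fam84b, as a description, since the libraries share controls and lines and these genes were the best of many.

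**Figure D4:**
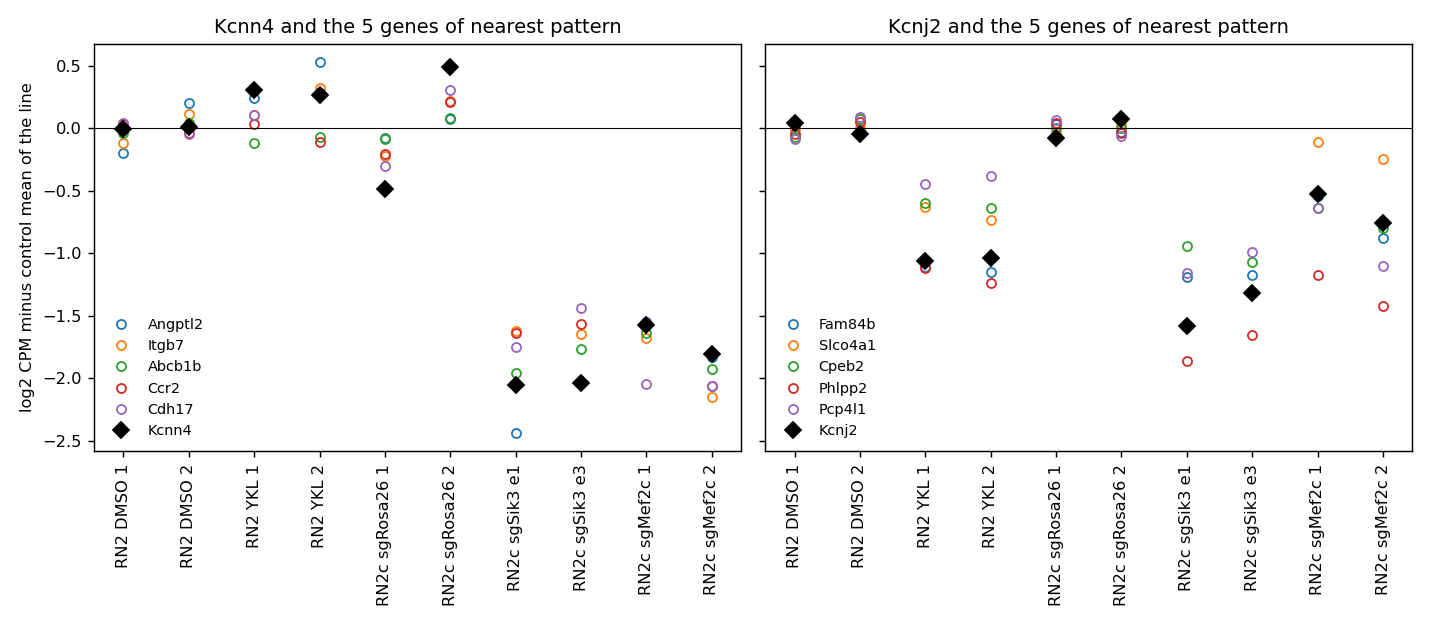
Log2 level in each of the 10 mouse libraries, relative to the control mean of the line. Black diamonds are Kcnn4 and Kcnj2, and open circles are the 5 genes nearest to each. The wide step between the sgRosa26 libraries is seen in Kcnn4 (-0.49 and 0.49) and is smaller in its nearest genes.

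Markers of other cells that use these channels were read in the same libraries. In bulk RNA, fewer cells of a type and less RNA per cell cannot be told apart. For red cells, where Kcnn4 is best known, the globin genes Hba-a1, Hbb-bs and Hbb-bt and the membrane protein gene Rhag were at 0 in every mouse library, and the erythroid list summed to 19.65 to 38.77 normalized counts in RN2c. For mast cells, Fcer1a and Tpsb2 were at 0, and 3 of 7 markers were measured. One of them, Ms4a2, differed little, with 111 and 121.7 normalized counts in sgRosa26 and 105.1 and 112.4 in sgSik3. Another, the mast cell protease gene Cpa3, was lower in the same RN2c groups as Kcnn4. It had 614.3 normalized counts in sgRosa26 replicate 1 and 1548 in replicate 2, and 323 and 349.3 with e1 and e3. In RN2, Cpa3 overlapped between DMSO (207.8 and 278) and YKL-05-099 (221.6 and 320.5), where Kcnn4 did not. In the sgMef2c table Cpa3 went from 645.7 and 1623 to 295.5 and 161.5. The mast cell list summed to 3770 and 5357 in sgRosa26 and to 4634 and 4849 in sgSik3, and to 3963 and 5617 and to 4618 and 4408 in the sgMef2c table. Most of that sum was Kit, a receptor that leukemic progenitors also carry, at 3045 and 3688 in sgRosa26 and 4206 and 4387 in sgSik3. Sums of the T cell and B cell lists reached at most 1.946 and 10.46 normalized counts in RN2c. Of the other lists, the endothelial gene Vwf fell from 117.6 and 147.6 to 80.76 and 96.07 in sgSik3 and from 123.6 and 154.7 to 80.58 and 62.47 in sgMef2c, with Tek at 1 read or less. In sgSik3, 1 of 2 measured megakaryocyte genes rose, with Pf4 at 0, and so did the fibroblast list's Pdgfrb, from 576.6 and 565.4 to 682.1 and 723.8, with Col1a2 at 1 read or less. No marker gene passed the test in RN2 or MOLM-13. In MOLM-13 the T cell list summed to 2866 to 3219 normalized counts. Nearly all of that sum was CD4, at 2842 to 3180, while CD3D was at 23.06 to 41.91 and CD3E and CD3G were at 0. The myeloid list moved too, from sums of 47330 and 49370 to 75820 and 74510 with Sik3 guides (5 of 6 markers rose) and from 49750 and 51770 to 61900 and 69300 with Mef2c guides (4 rose and 1 fell). The part of these markers in the Kcnn4 and Kcnj2 differences was not tested. In RN2 the myeloid sums stayed between 24460 and 26460 with DMSO and inhibitor.

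The neighbours of each gene were taken by position. Smg9, a gene of nonsense-mediated mRNA decay that lies 12928 bases beyond Kcnn4, had log2 differences of -0.15 in sgSik3 (limma adjusted p = 0.0531), -0.08 in sgMef2c (0.299) and 0.12 in RN2 (0.833), and passed no test. Lypd5, 15153 bases before Kcnn4, had no reads. Beside Kcnj2, Kcnj16, 38195 bases before it, had at most 3 reads per library, and Sox9, 1705402 bases beyond it, had none. The library kit does not mark strand, and 0 of the other genes in GENCODE M21, of any type, overlap Kcnn4 or Kcnj2.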

How the data were processed

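Messenger RNA was measured in 14 libraries, and the submitters' processing notes name the builds hg19 and mm10 and the tools HISAT2, featureCounts and DESeq2, with no version given in the sources used here. All values the authors deposited are a linear signal, gene read counts divided by a library size factor, in 4 tables scaled separately. Dividing each library by the worth of 1 read gave whole reads for 100% of values within 0.001 reads, and the sgRosa26 libraries were identical in both RN2c tables. Within a table, genes averaging at least 10 entered limma 3.58.1 (R 4.3.3) on log2(value + 1), a scale that understates changes of low genes. The tests were two-sided with a mean-variance trend, and p-values were adjusted by Benjamini-Hochberg and called under 0.05. On recovered reads, edgeR 4.0.16 (quasi-likelihood, TMM) and DESeq2 1.42.0 were alternatives, and all fits were tested on simulated data. Other alternatives were the pseudocount, no filter, no trend, the replicate block and leaving out each library.

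The members, gene lists and tests were chosen with earlier results of these data known. Besides Kcnn4 and Kcnj2, the genes named were the targets, in each list and comparison up to 3 genes of lowest p past the test (or the 1 of lowest p where none passed, as values), and for each member the 5 nearest profiles among genes with a mean of at least 50 in each mouse table, of which the text gives a selection. Neighbours were chosen by position and markers from 8 lists, with 1 marker gene not reported here. A count of 0 was taken to allow 3 reads. The recovered library totals were 13961461 to 24275290 reads, and Kcnn4 rests on 64 to 454 reads per RN2c library and Kcnj2 on 246 to 782.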

Additional observations from a re-analysis of the deposited data

Results flagged for a closer look

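For the voltage-gated potassium channel gene Kcnq5, both YKL-05-099 libraries lay below both DMSO libraries in RN2 (log2 difference -0.161), and for KCNQ5 in MOLM-13 both lay above them by a margin far under its standard error of 0.099 (log2 difference 0.017). The opposite signs drew attention to it. Neither value passed the limma test, the doses differed, and the difference between the lines was not tested. How many of all genes separate in this way was not counted.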

How the results depend on the processing

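Every mouse difference of Kcnn4 and Kcnj2 kept its direction under all alternatives run. These were edgeR, DESeq2, other pseudocounts, no filter, a minimum mean of 50, no trend, leaving out a library and, in RN2 and sgMef2c, the replicate block. The groups did not overlap in any mouse comparison of these genes. Leaving out a library or changing the pseudocount, filter, trend or block therefore could not turn a sign. With 1 library left out, Kcnn4 ranged from -2.69 to -1.68 in sgSik3, from -2.29 to -1.29 in sgMef2c and from 0.27 to 0.32 in RN2, and Kcnj2 from -1.62 to -1.35, from -0.77 to -0.54 and from -1.12 to -1.02. KCNN4 in MOLM-13 ranged from -0.09 to 0.16 and turned to -0.0033 without DMSO replicate 1 and -0.0869 without YKL-05-099 replicate 2. KCNJ2 had too few reads for any alternative. Counts of genes past the test depended on the setting, and the cause was not tested. For all genes in MOLM-13 (0) DESeq2 gave 7, and leaving out a library 14 to 20. In RN2 (34) no filter gave 3, no trend 0, and leaving out a library 28 to 321. In sgSik3 (5226) leaving out a library gave 3577 to 5481, and in sgMef2c (3442) 1815 to 3138, with 1628 for no trend and 2255 by DESeq2. Channel genes past the test with a library left out numbered 0 to 0 in MOLM-13, 0 to 1 in RN2, 5 to 8 in sgSik3 (9), and 2 to 3 in sgMef2c (2). DESeq2 gave 3 in sgSik3, and no filter gave 4 in sgMef2c.

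Same-numbered libraries had deviations that correlated at 0.525 in MOLM-13, 0.216 in RN2 and 0.0514 in sgMef2c over genes. With 2 pairs each, and no label that says what a number marks (in sgMef2c it is the guide), whether they are paired was not settled. With the replicate block, 290 genes passed in MOLM-13, 499 in RN2 and 3905 in sgMef2c, among them 2, 1 and 4 channel genes. The sgSik3 guides carry no shared number. KCNJ2 in MOLM-13 and most other channel genes had too few reads to compare.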
